A study of Rattus norvegicus with 22 samples.

Results

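Plaur, F12 and Kng1l1 encode proteins at the junction of plasminogen activation and the contact system, and they were described here as 3 of the 32545 gene identifiers counted in rat cortex. Plaur is ENSRNOG00000037931, F12 is ENSRNOG00000015139 and Kng1l1 is ENSRNOG00000030387. The members were taken by symbol, through tables in which the study pairs identifiers with names. Those tables name 1822 identifiers, chosen by the study from these same samples, so the ipsilateral tests of the members are not independent of how they came to have a name: 43.9% of the 1684 named identifiers tested ipsilaterally passed the threshold, against 4.68% of all 16104 tested.

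Penetrating ballistic brain injury (PBBI) drives a probe into the right frontal pole through an opening in the skull and briefly inflates a balloon on it, which leaves a cavity. Adult male rats, given as Sprague-Daley in the sample labels, received PBBI (n = 6) or a sham procedure (n = 5) that kept every step except the probe, and all 11 rats already carried EEG electrodes. Cortical RNA was taken 24 h later from the injured side (ipsilateral) and the opposite side (contralateral) of each rat, which gives 22 samples in 4 groups: PBBI ipsilateral, PBBI contralateral, sham ipsilateral and sham contralateral. The titles of the samples of PBBI rat 81 and of the contralateral sample of sham rat 82 hold PFC, and the other titles do not. Whether the tissue of these samples differs was not tested. Sham rats had their skull opened on the same side, so sham tissue is operated rather than untouched, and the tissue is bulk cortex, in which fewer cells of a type and less RNA per cell cannot be told apart.

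Plasminogen is a circulating zymogen that urokinase (Plau) and tissue plasminogen activator cut into plasmin, the protease that dissolves fibrin and degrades matrix. The urokinase receptor, encoded by Plaur, holds urokinase on the cell surface, binds vitronectin and works with the leukocyte integrin Mac-1. The contact system starts from coagulation factor XII, encoded by F12, which with prekallikrein and kininogen assembles on negatively charged surfaces. Activated factor XII drives kallikrein formation and intrinsic coagulation, kallikrein releases bradykinin from kininogen, and bradykinin opens the barrier of small vessels. The liver is the usual source of factor XII and kininogen in plasma, and Kng1l1 belongs to the rat kininogen family.

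The start regions of the 3 genes are shown for their motif matches and for the run of bases that Kng1l1 shares with another kininogen. The windows of the 3 members were not compared with one another. All 3 members were found in RefSeq's assembly GRCr8, 2 by symbol and Kng1l1 as an older symbol of Kng1. Each line gives 250 bases before and 50 bases from the annotated start, 5′ to 3′ on the gene's strand. The count files use the earlier build Rnor 6.0, so these positions apply to GRCr8 only. The windows are Plaur at chr1:89181113-89181412 on the plus strand, F12 at chr17:9212569-9212868 on the plus strand and Kng1l1 at chr11:91340099-91340398 on the minus strand. Capitals mark an AP-1 motif match in Plaur, from -83 to -77 relative to the start, and in Kng1l1 the run of 87 bases that is also found in the window of Kng2.
Plaur: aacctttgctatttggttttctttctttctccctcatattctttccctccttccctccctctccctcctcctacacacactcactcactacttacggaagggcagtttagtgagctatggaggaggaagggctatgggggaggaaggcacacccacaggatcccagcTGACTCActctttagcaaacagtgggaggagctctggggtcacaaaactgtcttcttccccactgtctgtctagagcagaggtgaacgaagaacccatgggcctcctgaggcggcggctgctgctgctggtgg
F12: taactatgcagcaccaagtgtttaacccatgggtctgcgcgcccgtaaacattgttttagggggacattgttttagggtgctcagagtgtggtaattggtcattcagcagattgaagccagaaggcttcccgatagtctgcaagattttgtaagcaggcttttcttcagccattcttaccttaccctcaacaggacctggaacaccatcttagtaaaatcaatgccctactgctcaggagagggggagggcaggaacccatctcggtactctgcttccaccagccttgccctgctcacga
Kng1l1: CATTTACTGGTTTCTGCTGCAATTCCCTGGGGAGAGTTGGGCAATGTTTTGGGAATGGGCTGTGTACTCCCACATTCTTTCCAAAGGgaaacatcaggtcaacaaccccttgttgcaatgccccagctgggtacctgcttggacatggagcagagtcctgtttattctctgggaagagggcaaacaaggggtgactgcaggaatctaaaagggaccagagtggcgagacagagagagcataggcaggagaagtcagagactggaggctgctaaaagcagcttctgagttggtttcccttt

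The motif searches were for AP-1 (TGANTCA), STAT (TTCNNNGAA) and NF-kB (GGG, any 5 bases, then CC) on both strands. The AP-1 match of Plaur was the only match in the 3 windows, so no motifs overlapped. Among all 33469 windows of this length, AP-1 matched 7.33%, STAT 8.87% and NF-kB 47.3%. A match describes letters only. RefSeq lists 3 kininogen genes (Kng1, Kng2 and Kng2l1) on chromosome 11, and the longest exact run that the Kng1l1 window shared with a window of Kng2l1 was 65 bases. These runs lie in the start windows, and transcript sequences were not compared. Whether the counting splits reads among the kininogens was not tested, so the level of Kng1l1 is uncertain as that of a single gene.

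Total counts per sample lay between 42085341 and 63412426. The ipsilateral library of PBBI rat 85 stood apart from the rest. Its first principal component score over the ipsilateral samples was 201.9, against -72.99 to 74.59 for the other samples. Its mean correlation with its own group was 0.835, where every other sample reached at least 0.933, and its library scaling factor of 0.7063 was the lowest of the 22. Tests of F12, the member most affected by it, are given with and without it. No neuronal or oligodendrocyte marker of the lists used could be paired with an identifier, so those markers could not check the cortical label. The astrocyte markers Gfap, Aldh1l1 and Gjb6 summed to 386 to 946 CPM in sham ipsilateral cortex and to 1830 to 6850 CPM in PBBI ipsilateral cortex. Gfap made up most of this sum, with means of 575 and 4560 CPM, while Aldh1l1 was lower after PBBI (14.2 against 7.27 CPM) and so was Gjb6 (44.7 against 15.5 CPM).

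Levels are in CPM, the counts of a gene scaled to a common library size after correction of the library total by the trimmed mean of M values. Plaur, the urokinase receptor, was low in cortex away from the injury and rose in the injured hemisphere of every PBBI rat. In PBBI ipsilateral cortex its CPM ran from 1.93 to 19.9 with a median of 7.19, from counts of 131 to 1270. In sham ipsilateral cortex the 5 rats (82, 84, 86, 91 and 94) had 1.42, 0.703, 1.02, 0.586 and 1.27 CPM. The groups did not overlap, rat 81 was the highest and rat 83, at 1.93 CPM, was the closest to sham.

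The Plaur mean was 8.90 ± 6.04 CPM (SD, n = 6) after PBBI and 0.998 ± 0.356 CPM (SD, n = 5) after sham, an 8.91-fold ratio of means. The log2 fold change was 3.15 with a standard error of 0.526 (edgeR's quasi-likelihood test, Benjamini-Hochberg adjusted p = 0.00609). The exact permutation test over all splits of the rats into 6 and 5, two-sided, gave p = 0.00433, where 0.00216 is the smallest it can give. Without rat 85 the log2 fold change was 3.22 (edgeR adjusted p = 0.00252).

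On the contralateral side Plaur did not pass the test. PBBI rats had 0.696 to 1.32 CPM with a median of 1.01, and the sham rats had 2.71, 0.817, 1.37, 0.761 and 1.06 CPM. The highest sample was sham rat 82, and the groups overlapped. The log2 fold change was -0.40 with a 95% interval of -1.07 to 0.28 (edgeR adjusted p = 1, two-sided exact permutation p = 0.509), and without sham rat 82 it was 0.01. Of all genes tested on that side, 0% passed the threshold.

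The difference between hemispheres was also tested for Plaur directly. Within each PBBI rat the ipsilateral level exceeded the contralateral level, by 2.03-fold in rat 83 to 15.1-fold in rat 81. In the 5 sham rats the same ratio ran from 0.524 to 1.20. The fitted within-PBBI log2 difference was 3.14 with a standard error of 0.446 (edgeR adjusted p = 0.00767), in a comparison where 3.56% of genes passed. Without PBBI rat 88 or 96 the adjusted p was 0.067 and 0.0688. The exact sign-flip test over rats gave p = 0.0312, the smallest that 6 rats allow. Within sham the difference was -0.42 (edgeR adjusted p = 1), and there 0% of genes passed.

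The interaction, the ipsilateral injury effect minus the contralateral effect, was 3.56 on the log2 scale for Plaur with a standard error of 0.616 (edgeR adjusted p = 0.0224, two-sided exact permutation p = 0.00433). It ranked number 5 by p among 16587 genes, of which 0.326% passed. With each rat as a replicate block, so that its hemispheres are paired, the interaction was 3.24 with a standard error of 0.455 (edgeR adjusted p = 0.00441), and 4.27% of genes passed. Leaving out a rat moved the unblocked value only between 3.24 and 3.75, but 8 of the 11 such fits had an adjusted p above 0.05, up to 0.106.

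**Figure D1:**
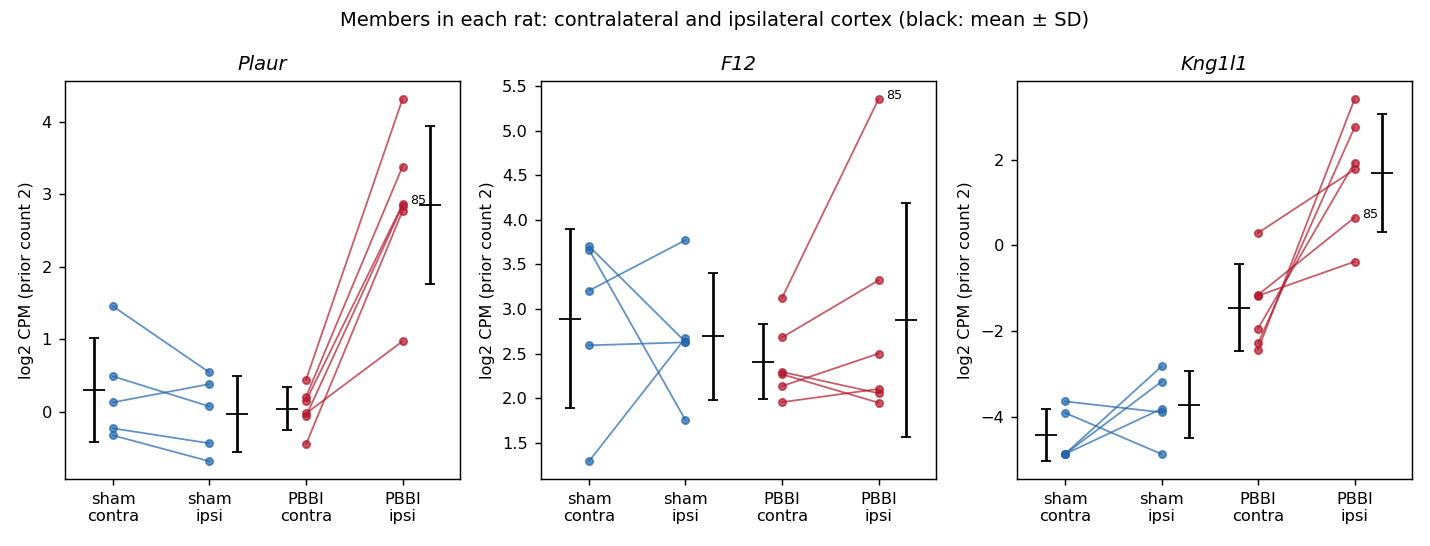
Log2 CPM (prior count 2) of Plaur, F12 and Kng1l1 in the 22 samples, in a panel each with its own scale. Lines join the hemispheres of a rat, blue is sham and red is PBBI, and black marks give mean ± SD. Plaur climbs from contralateral to ipsilateral in all 6 PBBI rats, F12 does so steeply in rat 85 alone, and Kng1l1 is above every sham sample on both sides after PBBI.

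F12, the zymogen that starts the contact system, showed no difference that passed the test in any comparison, and its mean in injured cortex was set by a single rat. In PBBI ipsilateral cortex, rats 81, 83, 85, 88, 90 and 96 had 9.96, 4.26, 40.8, 5.62, 4.12 and 3.83 CPM. In sham ipsilateral cortex the 5 rats had 3.34, 6.14, 13.6, 6.36 and 6.15 CPM. Rat 85 was the only PBBI sample above every sham sample, and the other 5 lay inside the sham range.

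The F12 mean was 11.4 ± 14.6 CPM (SD, n = 6) after PBBI against 7.12 ± 3.85 CPM (SD, n = 5) after sham, whereas the medians had the opposite order, at 4.94 and 6.15 CPM. The log2 fold change was 0.69 with a 95% interval of -0.60 to 1.97 (edgeR adjusted p = 0.714, two-sided exact permutation p = 0.803). Without rat 85 the PBBI mean was 5.56 ± 2.56 CPM (SD, n = 5) and the log2 fold change turned to -0.37 (edgeR adjusted p = 0.556). The sample of rat 85 is the one that stands apart across all genes, and the sham ipsilateral sample with the most F12, rat 86 at 13.6 CPM, had the second highest first component score, 74.59.

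Contralaterally F12 was 3.84 to 8.68 CPM after PBBI, with a median of 4.83. The sham rats had 12.7, 6.00, 9.19, 2.41 and 13 CPM, a wider range that held the whole PBBI range. The log2 fold change was -0.66 with a 95% interval of -1.39 to 0.07 (edgeR adjusted p = 1, two-sided exact permutation p = 0.305).

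Within rats, F12 showed no common direction between hemispheres. The ipsilateral to contralateral ratio was above 1 in 4 of 6 PBBI rats (1.56, 1.11, 4.70 and 1.29) and below it in rats 90 and 96 (0.847 and 0.800). In sham rats it ran from 0.264 to 2.63. The within-PBBI log2 difference was 1.10 with a standard error of 0.588 (edgeR adjusted p = 0.377) and 0.46 with rats as a replicate block (edgeR adjusted p = 0.407). The interaction was 1.34 with a 95% interval of -0.21 to 2.89 (edgeR adjusted p = 0.662). Without rat 85 the within-PBBI difference was 0.21 (0.14 in the replicate block) and the interaction was 0.45, with edgeR adjusted p = 0.696, 0.614 and 0.826.

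Kng1l1, a kininogen of the family whose members are precursors of kinins, was near 0 in sham cortex and was counted in all 12 PBBI samples. In sham ipsilateral cortex the counts were 2, 4, 4, 0 and 2, which is 0 to 0.107 CPM. In PBBI ipsilateral cortex rats 81, 83, 85, 88, 90 and 96 had counts of 216, 50, 68, 740, 470 and 280, which is 3.38, 0.735, 1.54, 10.6, 6.73 and 3.79 CPM. The groups did not overlap, and the highest PBBI rat, 88, had 14.5 times the level of the lowest, 83.

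Because sham counts were at or near a floor of 3 counts per sample, the change is given as a ratio of summed counts scaled for library size. This ratio was 105 ipsilaterally (1824 counts against 12, 95% exact counting interval 59.8 to 203). The interval covers counting error only. The fitted log2 fold change of 6.50 with a standard error of 0.90 (edgeR adjusted p = 0.00283) depends on the prior count, and the two-sided exact permutation p was 0.00216, the smallest possible. Without rat 85 the fitted value was 6.70 (edgeR adjusted p = 0.000515). Of the 22 counts of Kng1l1, 20 were even, and across samples 60.8% to 69.6% of counts from 1 to 19 were even. The cause was not tested.

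Contralaterally Kng1l1 was also above sham in each PBBI rat, at a lower level, but it did not pass the adjusted threshold. The PBBI counts were 73, 22, 24, 10, 10 and 13, or 0.151 to 1.19 CPM, and the sham counts were 0, 0, 0, 2 and 2. The groups did not overlap, and among all tested genes 0.0943% had PBBI samples that all lay above sham on this side. The ratio of summed counts was 29.4 (152 counts against 4, 95% exact counting interval 11.3 to 109). The unadjusted edgeR p was 0.000122, rank 2 of 15907 genes, and the adjusted p was 0.967 (two-sided exact permutation p = 0.00216). Under limma's voom with sample quality weights the adjusted p was 0.0112.

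Within PBBI rats Kng1l1 was higher ipsilaterally in 6 of 6 rats, by 2.84, 1.80, 3.70, 70.6, 39.4 and 16.7-fold in rats 81, 83, 85, 88, 90 and 96. The rats with the 3 largest ratios were the ones with the fewest contralateral counts, 10 to 13. They also had the most ipsilateral counts, 280 to 740. The log2 difference was 3.38 with a standard error of 0.695 (edgeR adjusted p = 0.0219), and 3.19 with rats as a replicate block (edgeR adjusted p = 0.0415). Without rat 88, 90 or 96 the adjusted p rose to 0.109, 0.110 and 0.104. Whether the injury effect on Kng1l1 differed between hemispheres was not resolved, as the interaction was 1.84 with a 95% interval of -1.29 to 4.96 (edgeR adjusted p = 0.879). Within sham, Kng1l1 did not pass the filter on low counts, so 2 of 3 members were tested there.

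**Figure D2:**
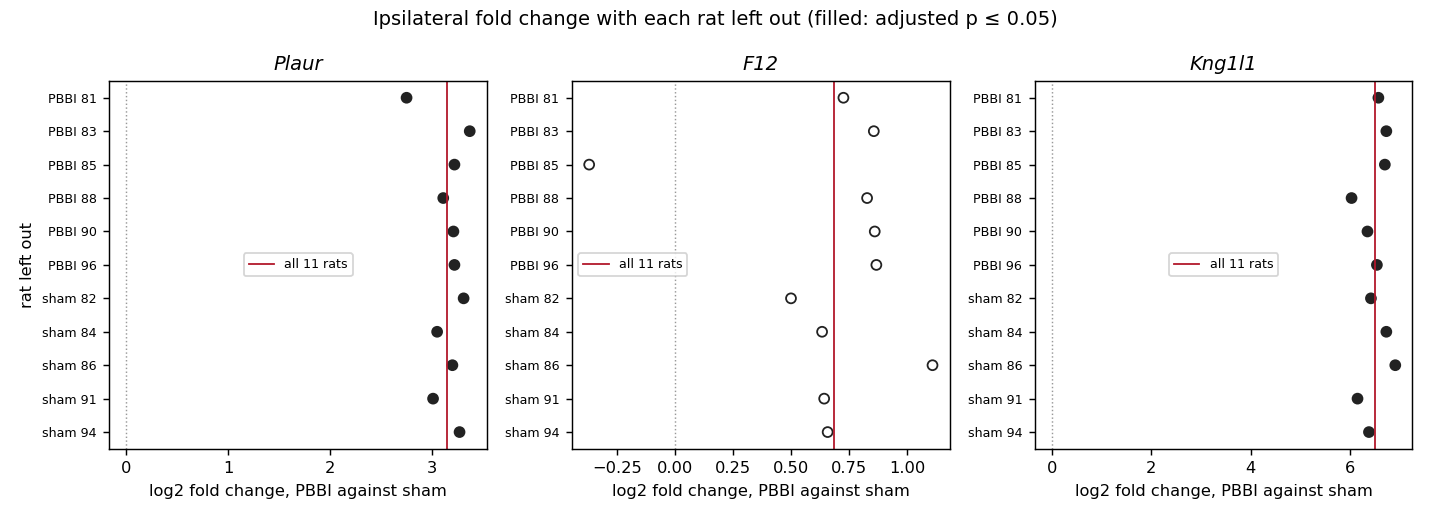
Ipsilateral log2 fold change of each member, PBBI against sham, with 1 of the 11 rats left out in turn. The red line is the value with all rats, filled points have an edgeR adjusted p of 0.05 or less, and each panel has its own scale. Plaur stays between 2.75 and 3.37 and Kng1l1 between 6.03 and 6.91 with all points filled, while F12 falls below 0 without PBBI rat 85.

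Of the 3 members, 3 passed the filter on low counts ipsilaterally and 2 rose (Plaur and Kng1l1), where 4.09% of all tested genes rose and 3.50% had PBBI samples that all lay above sham. Within PBBI the same 2 were higher ipsilaterally, where 2.97% of genes were. Among named identifiers, to which the members belong, 43.9% passed ipsilaterally and 32.1% within PBBI, in either direction. Kng1l1 passed the ipsilateral filter only through its PBBI samples. The scale of the levels differed among the members. Per kilobase of gene model, the mean in sham ipsilateral cortex was 3.37 ± 1.82 CPM (SD, n = 5) for F12, 0.974 ± 0.347 for Plaur and 0.0192 ± 0.0158 for Kng1l1. In PBBI ipsilateral cortex it was 8.68 ± 5.89 CPM per kilobase (SD, n = 6) for Plaur, 5.41 ± 6.90 for F12 and 1.70 ± 1.39 for Kng1l1. The spread of F12, which includes rat 85, held the means of both other members there.

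The rats that were highest differed by gene. Rat 81 was highest for Plaur, rat 85 for F12 and rat 88 for Kng1l1, and rat 83 was lowest for both Plaur and Kng1l1.

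Sums of leukocyte markers were higher on the injured side as well. The neutrophil list had 8 of 12 genes with an identifier, and its summed level was 50.8 to 286 CPM (median 185) in PBBI ipsilateral cortex and 15.7 to 76.3 CPM in sham ipsilateral cortex. On the contralateral side it was 21.6 to 71.8 CPM after PBBI and 23.0 to 64.9 CPM after sham. Elane, a granule protease made in immature neutrophils, had 0 counts in all 5 sham ipsilateral samples and 0 to 31 counts after PBBI. The microglia and macrophage list, with 6 of 12 genes, summed to 62.3 to 264 CPM in PBBI ipsilateral cortex and 40.2 to 56.7 CPM in sham ipsilateral cortex. Its members did not all go the same way: the mean of Tmem119, a marker of resident microglia, was 31.6 CPM after sham and 16.7 CPM after PBBI, while those of Itgam, Ptprc, Cd14, Cd163 and Msr1 were higher after PBBI.

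Rat 81, highest for Plaur, had the highest sum on both lists, at 286 and 264 CPM, and rat 83, lowest for Plaur, had the lowest neutrophil sum, at 50.8 CPM. Rat 85 combined a neutrophil sum of 248 CPM with the lowest microglia and macrophage sum, 62.3 CPM. The part of leukocytes in the levels of Plaur and Kng1l1 was not tested. Of the hepatocyte list only Alb had an identifier. It was 1.09 to 13.6 CPM in PBBI ipsilateral cortex and 12.0 to 30.3 CPM in sham ipsilateral cortex. Its mean was lower after PBBI, 5.08 against 21.1 CPM, and the ranges met at their edges. Kng1l1 was higher after PBBI, and its ranges did not meet. The source of the Kng1l1 reads was not tested.

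**Figure D3:**
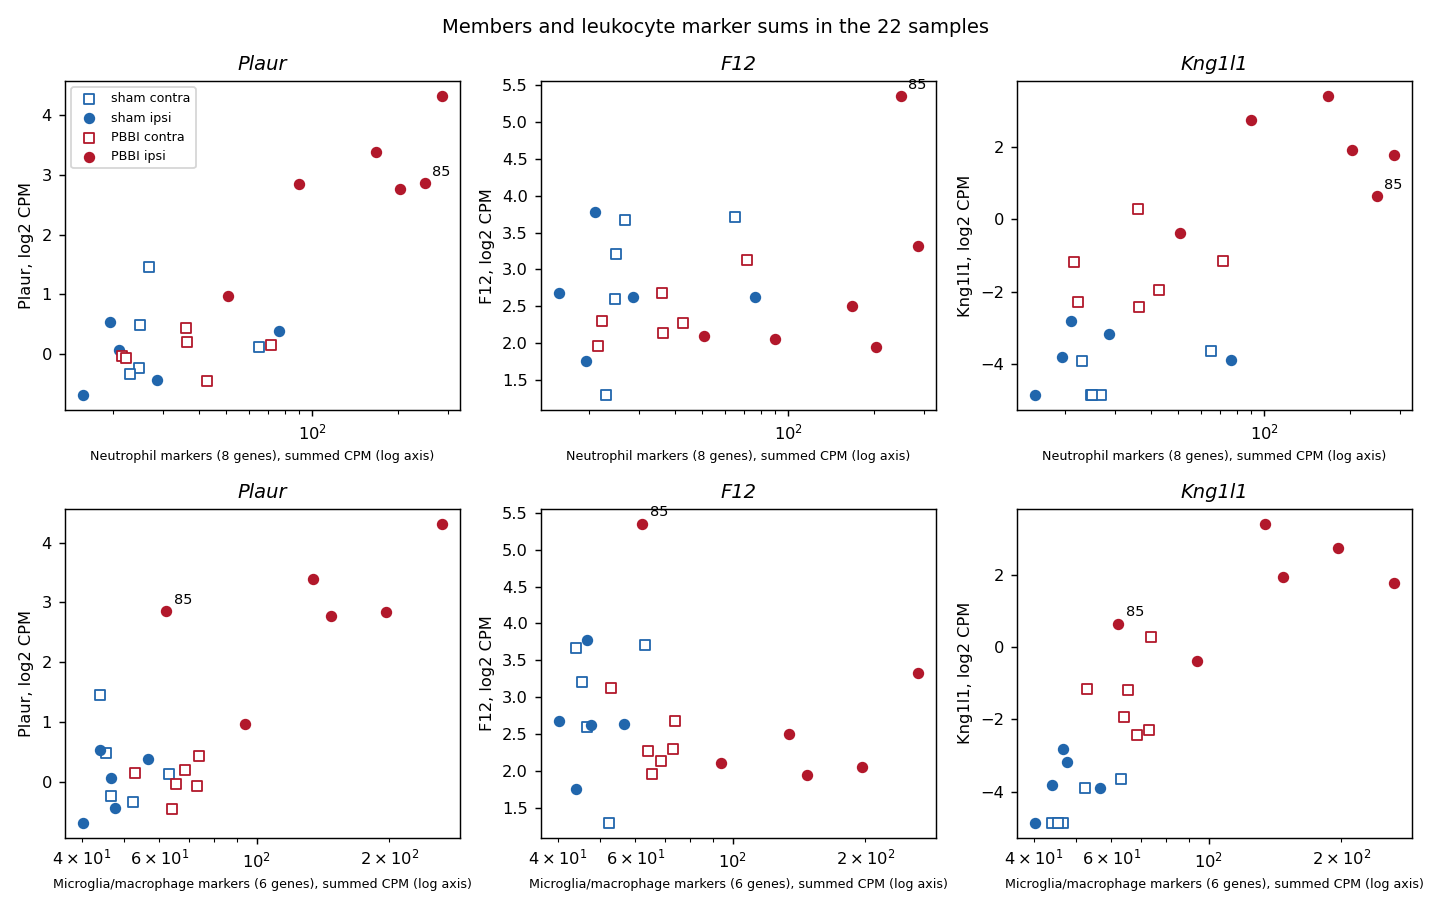
Log2 CPM of each member against the summed CPM of neutrophil markers (upper row) and of microglia and macrophage markers (lower row) in the 22 samples, with log x axes. Filled points are ipsilateral and open points contralateral, red is PBBI and blue is sham. The PBBI ipsilateral samples lie at 50.8 to 286 CPM for the neutrophil sum, and Plaur there is above all other samples except in rat 83, whose 1.93 CPM is below the 2.71 CPM of a sham contralateral sample.

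The wider pathway was described through lists of 79 genes by role. Of these, 28 could be named (35.4%) and 27 passed the filter ipsilaterally. Since names exist only for genes that the study called, the counts are no independent evidence of direction. Ipsilaterally 17 of the 27 rose and 0 fell, with a median log2 fold change of 2.26 against -0.02 over all genes tested. F7 and Kng1l1, with 0 to 4 counts per sham ipsilateral sample, passed the filter only through their PBBI samples. Serpind1, lower in every PBBI ipsilateral sample than in sham, failed it. The filter thus favoured genes that rise, and 0 fell only among the genes it kept. The share of all genes that rose was 4.09%, and among named identifiers, the fairer comparison for a list of named genes, 43.9% passed and the median was 1.25. The count of 17 fell to 11 when sham rat 84, 86 or 91 or PBBI rat 88 was left out. Without the 3 members 15 of 24 rose. On the contralateral side 0 of 26 passed the edgeR test, 3 had an unadjusted edgeR p under 0.05 (Kng1l1, Anxa2 and Pros1) where 2.3% of all genes did, and the median was 0.30.

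Among the proteases that activate the system, Plau, the urokinase that binds the receptor of Plaur, rose from 0.462 ± 0.324 (SD, n = 5) to 5.97 ± 4.27 CPM (SD, n = 6), a log2 fold change of 3.67 with a standard error of 0.835 (edgeR adjusted p = 0.0271). The lowest PBBI rat, at 0.452 CPM, lay inside the sham range. St14, the membrane protease matriptase, had a log2 fold change of 1.36 and missed the threshold (edgeR adjusted p = 0.0712). Thus 1 of 2 named proteases rose, where 4.09% of all genes rose and 43.9% of named identifiers passed.

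Of the 7 tested genes for the receptor, its partners and proteins that bind plasminogen at the surface, 5 rose. Besides Plaur these were Itgam and Itgb2, the chains of the integrin Mac-1, with log2 fold changes of 2.58 and 2.30 (edgeR adjusted p = 0.00833 and 0.0142), and Anxa2 and S100a10, whose proteins form a complex that binds plasminogen and its activator, with 2.32 and 2.98 (edgeR adjusted p = 0.00665 and 0.0127). Beside these 5 of 7 stand 4.09% of all genes that rose and 43.9% of named identifiers that passed. Itgam also belongs to the microglia and macrophage list. S100a10 went from 58.4 ± 25.7 (SD, n = 5) to 459 ± 396 CPM (SD, n = 6), with 1230 CPM in rat 85, and without that rat its log2 fold change was 2.37. Vtn, which encodes vitronectin, a ligand of the receptor, was the single list gene among the 27 fitted with a negative value, -1.08 (edgeR adjusted p = 0.0999), and without rat 85 it was -1.12 and past the threshold (edgeR adjusted p = 0.0464).

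The named inhibitor Serpinb2, plasminogen activator inhibitor 2, rose by 4.10 on the log2 scale with a standard error of 0.902 (edgeR adjusted p = 0.0235), from 0.120 ± 0.110 (SD, n = 5) to 2.12 ± 2.31 CPM (SD, n = 6). Per kilobase, the PBBI ipsilateral mean was 8.68 CPM for Plaur and 3.18 CPM for Plau, and in sham ipsilateral cortex these were 0.974 and 0.246 CPM.

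Of 4 named contact and kinin genes, Kng1l1 alone rose, where 4.09% of all genes rose and 43.9% of named identifiers passed. F12 is described above. Bdkrb2, the bradykinin B2 receptor, had 1.72 ± 1.11 CPM (SD, n = 6) after PBBI and 0.413 ± 0.377 (SD, n = 5) after sham, a log2 fold change of 2.05 that missed the threshold (edgeR adjusted p = 0.131) and passed without rat 85, at 2.22 (edgeR adjusted p = 0.0433). Prcp, a carboxypeptidase that degrades angiotensin and can activate prekallikrein, had 0.81 (edgeR adjusted p = 0.0705), and without rat 85 it was 0.78 (edgeR adjusted p = 0.0478).

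In the coagulation list 9 of 13 tested genes rose, and the other 4 had positive values. Of all genes tested 4.09% rose. Of named identifiers, from which this list was drawn, 43.9% passed and the median log2 fold change was 1.25. F3, tissue factor, which starts the extrinsic cascade, rose by 0.76 on the log2 scale (edgeR adjusted p = 0.0328). F7, the protease that tissue factor binds, had 0 counts in all 5 sham ipsilateral samples and 282, 0, 12, 395, 143 and 57 counts in PBBI rats 81, 83, 85, 88, 90 and 96. Its PBBI mean of 2.20 CPM was at least 27.4-fold higher than the floor of 3 counts per library, and it passed the test (edgeR adjusted p = 0.0377).

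Procr, the endothelial protein C receptor, had a log2 fold change of 2.58, Pros1, protein S, had 1.10, and Tfpi2, a Kunitz inhibitor that acts on plasmin and other proteases, had 2.86 (edgeR adjusted p = 0.00575, 0.00558 and 0.00854). F2rl3, the thrombin receptor PAR4, had 2.54 (edgeR adjusted p = 0.00567). Serpind1, heparin cofactor II, an inhibitor of thrombin, failed the filter on low counts and is named here after its values were seen. It had 0 to 6 counts per PBBI ipsilateral sample and 4 to 14 per sham ipsilateral sample, or 0.0192 ± 0.0355 CPM (SD, n = 6) against 0.158 ± 0.0802 (SD, n = 5). Every PBBI sample lay below every sham sample on the CPM scale (two-sided exact permutation p = 0.00433, unadjusted).

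**Figure D4:**
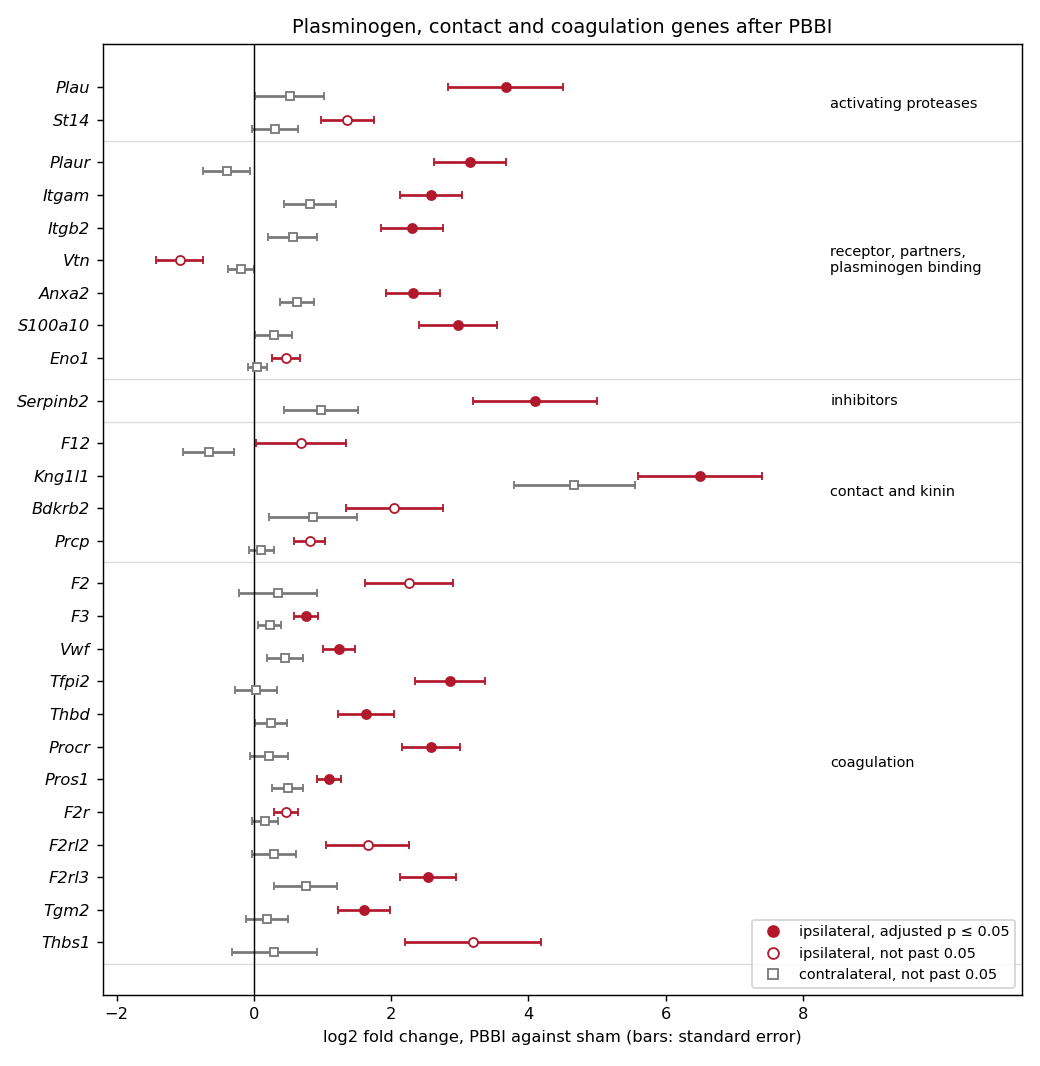
Log2 fold change of PBBI against sham, with standard error bars, for 26 named genes of the plasminogen, contact and coagulation systems by role. Circles are ipsilateral, filled where the edgeR adjusted p is 0.05 or less, and grey squares are contralateral. F7, at 0 counts in sham, is left out because its fitted fold is no bound, and Vtn is the single gene plotted with a negative ipsilateral value, -1.08. Serpind1, which was not fitted, is not shown.

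For the interaction, 3 of 27 list genes passed, Plaur, Procr (2.35, edgeR adjusted p = 0.0377) and Tfpi2 (2.83, edgeR adjusted p = 0.0401), where 0.326% of all genes and 3.14% of named identifiers did. With rats as a replicate block, 7 passed, where 4.27% of all genes did. In 8 of the 11 fits that left out 1 rat, 0 list genes passed. Within PBBI, in the fit without pairing, 13 of 27 were higher ipsilaterally, where 2.97% of all genes were. Of named identifiers 32.1% passed there in either direction. With rats as a replicate block, Itgam, Itgb2, Eno1, Vwf and Thbd also passed and were higher ipsilaterally. Vtn passed and was lower ipsilaterally (-1.02, edgeR adjusted p = 0.0466), while Serpinb2 no longer passed (edgeR adjusted p = 0.0662). In that fit 1646 genes of all kinds passed in either direction. Within sham 0 of 24 passed.

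The named genes whose pattern was most like each member are given by Pearson's r of log2 CPM over the 22 samples, with r after subtracting the 4 group means second. The hemispheres of a rat share an animal, and the first r mostly follows the groups. For Plaur these were Cxcl3 (0.948 and 0.811), Sprr1a (0.934 and 0.754), Fosl1 (0.931 and 0.696), P4hb (0.930 and 0.729) and Il1b (0.928 and 0.767), and 1 unnamed identifier ranked among them. For Kng1l1 they were Timp1 (0.938 and 0.635), Fgl2 (0.932 and 0.617), Chdh (0.929 and 0.653), Kif18a (0.925 and 0.553) and Pde6b (0.922 and 0.400), which held ranks 1 to 5 of 16586.

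For F12 the named genes were B3gnt2 (0.848 and 0.909), Nmb (0.748 and 0.800), Cbr3 (0.741 and 0.811), Phlda1 (0.741 and 0.823) and Des (0.723 and 0.849). They ranked between 239 and 1441 of 16586, with 238 unnamed identifiers above the first, so the genes most like F12 carry no name here. The r of F12 rose after the group means were subtracted, whereas for the genes listed beside Plaur and Kng1l1 it fell. The r values of F12 include the ipsilateral sample of rat 85, at 40.8 CPM against 3.83 to 9.96 CPM in the other PBBI rats. They were not computed without it, so they do not show which genes go with F12 in the other rats.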

How the data were processed

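Total RNA of rat cortex was depleted of ribosomal RNA and sequenced by the study. Per the labels, reads were aligned with STAR 2.4.2a and counted with featureCounts 1.4.3-p1 on Rnor 6.0, and the authors deposited raw counts per Ensembl gene, with gene length, without normalization. How reads aligning to several places were treated is not given in the sources used here. Groups came from the labels for treatment, hemisphere and animal.

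The members and gene lists were chosen with earlier results of these data known. The named genes were the 3 members, 7 pathway genes regardless of value, the 4 with the smallest ipsilateral p in each role list, and the 5 named genes most correlated with each member.

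Counts were tested with edgeR 4.0.16 in R 4.3.3 (quasi-likelihood, TMM, filterByExpr, Benjamini-Hochberg, threshold 0.05) for PBBI against sham in each hemisphere (11 samples each), their interaction (22 samples), and ipsilateral against contralateral within PBBI and within sham. Log2 CPM used a prior count of 2. Single members were also compared by exact permutation over rats. Samples with a number in common come from the same rat, and their deviations from group means correlated at 0.246 to 0.758 in all 11 rats, while the highest mean correlation with other rats was -0.0152. Surgeries were done in weekly groups that the labels do not assign, so these were not used. Alternatives were DESeq2 1.42.0, RLE size factors, other filters, limma 3.58.1 voom with quality weights, a fit of all 22 samples, the rat as a replicate block, and leaving out each rat. Fits were tested on simulated data. Counts are not independent molecules, although the counting intervals of the Kng1l1 ratios treat them so. Those intervals cover counting error only. The other standard errors were computed from the fold change and the quasi-likelihood test statistic, and they include variation between rats. The intervals built on them use normal quantiles. They are approximate and may be too narrow beside the p-values. Some results are not reported here. The study's supplementary tables were used only for gene symbols.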

Additional observations from a re-analysis of the deposited data

Results flagged for a closer look

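Within groups of 5 or 6 samples, the highest or lowest value was compared with its gap to the nearest other sample by Dixon's criterion. For independent normal values chance meets it in about 1 of 20 groups. CPM values need not be normal and the genes share samples, so that rate need not hold here. The criterion was met in 8 of 76 groups over 19 genes, and no excess over chance is read from this. Among the members, F12 in the PBBI ipsilateral sample of rat 85 stood at 40.8 CPM against 3.83 to 9.96 CPM in the other 5 rats, and Kng1l1 in the PBBI contralateral sample of rat 81 at 1.19 CPM against 0.151 to 0.415 CPM.

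The PBBI ipsilateral sample of rat 85 also held St14 at 10.4 CPM (others 3.6 to 5.85) and S100a10 at 1230 CPM (others 109 to 417). The PBBI contralateral sample of rat 81 also held F7 at 0.179 CPM (others 0 to 0.0302). In sham cortex, St14 was 3.42 CPM in the contralateral sample of rat 94 (others 1.46 to 2.02), F2rl3 was 0.374 CPM in the ipsilateral sample of rat 86 (others 0.197 to 0.240), and F7 was 0.0365 CPM in the contralateral sample of rat 86, with the others at 0 counts.

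The injury effect differed between hemispheres in the edgeR interaction test for 3 genes. The ipsilateral minus contralateral effect on the log2 scale was 3.56 for Plaur (adjusted p = 0.0224), 2.35 for Procr (adjusted p = 0.0377) and 2.83 for Tfpi2 (adjusted p = 0.0401).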

How the results depend on the processing

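Of the recomputed values, 223 kept their direction and their side of the threshold or moved within the margin set. A further 13 no longer passed the threshold, 1 newly passed it, 4 reversed direction and 20 gene counts moved beyond that margin. The F12 ipsilateral log2 fold change turned to -0.257 under voom with sample quality weights, and leaving out each rat in turn gave -0.37 (without PBBI rat 85) to 1.11. The Kng1l1 contralateral value was 4.8 under voom and passed the threshold there, so 1 list gene passed contralaterally. For the interaction, list genes past the threshold numbered 3, but 6 with DESeq2 without its prior, 12 with voom, 7 with the rat as a replicate block and 9 in the replicate block without rat 85, a setting chosen after the data were seen, and 0 to 5 with a rat left out. Leaving out each rat gave -0.541 to 0.0109 for Plaur contralaterally (reversed without sham rat 82), 3.24 to 3.75 for the Plaur interaction (past the threshold in 3 of 11 fits), 2.84 to 3.32 for Plaur within PBBI (not past it without rat 88 or 96), 2.75 to 4.12 for Kng1l1 within PBBI (not past it without rat 88, 90 or 96) and -0.632 to 0.0697 for F12 within sham (reversed without rat 82). Of the list genes 17 passed ipsilaterally, against 26 with voom and 11 (without sham rat 84, 86 or 91 or PBBI rat 88) to 22 with a rat left out, and genes of all kinds past the ipsilateral threshold numbered 753, against 1680 with DESeq2, 1655 with all 22 samples, 5014 with voom, and 316 (without sham rat 91) to 2186 (without PBBI rat 85) with a rat left out. The cause was not tested. The replicate block changed no call of a member. DESeq2 offers no prior with an interaction term, so it was run there without. With at least 10 counts in every sample, Kng1l1 gave no value for PBBI against sham on either side or for the interaction. Contralaterally it also gave none without PBBI rat 81, 83, 85, 90 or 96. In these fits Kng1l1 failed a filter on low counts. Within PBBI, at 10 counts in every sample, its log2 difference was 3.39 (edgeR adjusted p = 0.0214). Its sham counts of 0 to 4 limit the precision of its fold change.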
